A study of Homo sapiens with 19 samples.

Results

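The 34 genes examined here encode proteins that build melanosomes and move them through the pigment cell, and they are a list of gene symbols whose rule uses the known role of each gene and no value measured in these samples. All 34 were matched by symbol to 1 Ensembl identifier each, of 44717 identifiers listed for any sample, and all 34 were listed in each of the 19 samples. By role they are 7 subunits of BLOC-1, 3 of BLOC-2 and 2 of BLOC-3, 5 adaptor subunits, 6 RAB GTPases, 6 motors, linkers and effectors, the lysosomal trafficking regulator LYST and 4 membrane proteins.

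The study silenced the chromatin remodeller BRG1 (gene SMARCA4) or the transcription factor MITF in 501Mel, a human melanoma cell line, and in Hermes 3A, an immortalised line of human melanocytes, and asked which genes each protein controls. In 501Mel the groups were shSCR1 and shBRG1 (3 replicates each), and shSCR2 and shMITF (2 replicates each). In Hermes 3A they were shSCR, shBRG1 and shMITF (3 replicates each), so that both knockdowns share 1 scramble group. The Hermes 3A shMITF samples listed 34033 genes each, against 42224 for Hermes 3A shSCR and shBRG1. In 501Mel the shSCR1 and shBRG1 samples listed 42224 and the shSCR2 and shMITF samples 41467. Hermes 3A shMITF and its scramble group thus came with unlike gene lists, and the reason is not given in the sources used here. Every group carried a lentiviral pLKO vector, with 1 short hairpin per target or a scramble hairpin. Each cell type is 1 line, and Hermes 3A medium held TPA, cholera toxin, stem cell factor and endothelin-1, which 501Mel medium did not, so that the line and its medium cannot be told apart. Nothing in the labels says that replicates came from separate cultures, and p-values measure the spread between these samples, which may be technical.

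Melanosomes are lysosome-related organelles in which melanin is made and stored. They form from endosomes, receive pigment enzymes through carriers that depend on the AP-1 and AP-3 adaptors, the BLOC complexes and the RAB32 and RAB38 GTPases, and then travel to the cell periphery. There RAB27A on the melanosome binds melanophilin (MLPH), which binds the actin motor myosin Va (MYO5A). Inherited loss of many of these proteins gives albinism with bleeding (Hermansky-Pudlak syndrome, HPS genes), Griscelli syndrome (RAB27A, MLPH, MYO5A) or Chediak-Higashi syndrome (LYST).

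The gene counts of a sample summed to between 29158502 and 78857900. Levels are given in CPM, counts scaled to the effective library size, normalised over the 19 samples together. The log2 fold changes come from edgeR's quasi-likelihood fit of each comparison, whose own normalisation shifted the difference by between -0.07 and 0.04 on the log2 scale in the 4 knockdown comparisons. A gene is called down- or up-regulated at a Benjamini-Hochberg adjusted p under 0.05 over all genes tested with a log2 fold change beyond 1 in size, and is said to have fallen or risen at the adjusted p alone. Where samples of groups are said to lie apart, the share of all genes doing so was counted only for 501Mel shMITF against both scramble groups. SMARCA4 changed by -2.36 ± 0.054 (SE) with shBRG1 in 501Mel and by -2.38 ± 0.048 in Hermes 3A, both on the log2 scale. MITF changed by -1.06 ± 0.14 with shMITF in 501Mel and by -0.85 ± 0.19 in Hermes 3A, and it also fell with shBRG1, by 1.55 and 0.43 on the log2 scale in the same order of lines. The 7 melanocyte markers summed to between 23838 and 25445 CPM with shSCR1 and between 34126 and 35183 CPM with Hermes 3A shSCR. In the scramble groups 6 fibroblast markers summed to at most 80.1 CPM. The keratinocyte markers KRT10 and TP63 summed to at most 37.4 CPM there. KRT1, KRT5 and KRT14, of the same list of 5, were not listed for every sample and are not in that sum. The fibroblast sum was higher in both Hermes 3A knockdown groups (112 to 219 CPM with shMITF and 138 to 147 CPM with shBRG1), most of it COL1A2, and in 501Mel shBRG1 (16.1 to 19.8 CPM against 3.72 to 5.16 CPM with shSCR1). The keratinocyte sum, most of it KRT10, was higher in Hermes 3A shMITF (43.8 to 65.4 CPM) than in its scramble group (32.4 to 35.1 CPM). The melanocyte sum was lower in every knockdown group than in its scramble group, at 2824 to 3036 CPM with 501Mel shBRG1, 7068 to 7594 CPM with 501Mel shMITF against 13863 to 14088 CPM with shSCR2, 12781 to 14308 CPM with Hermes 3A shMITF and 18264 to 19399 CPM with Hermes 3A shBRG1. The part of these shifts in the results was not tested, and in bulk RNA fewer cells of a type and less RNA per cell cannot be told apart.

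MITF binds the E-box CACGTG and the longer M-box TCATGTG, and RefSeq promoter windows (GRCh38.p14) were available for 27 of the 34 genes. The letters were searched on both strands in the 250 bases before each transcript start. The E-box, which reads the same on both strands, stood in a window of 7 of the 27 genes, against 7.73% of 27305 genes with windows. The M-box stood in a window of 5 of the 27, against 3.11%. Either motif stood in 10 of the 27 (37%), against 10.6% of all genes, and the 27 genes had 2.07 windows each on average against 1.29 over all genes. Of the 12 genes that were down-regulated with shBRG1 in 501Mel and had a window, 6 held a motif. Of the other 15 genes 4 did (BLOC1S1, BLOC1S3, HPS5 and ATP7A). For each of those 6 down-regulated genes the window that held a motif is shown, 5′ to 3′ on the strand of the gene, with the motifs in capitals. CD63 and MLPH had further windows, which held neither motif and are not shown. CD63 holds both motifs, GPNMB and GPR143 hold the M-box at 2 places each, RAB17 holds 1 M-box, and MLPH and HPS3 hold 1 E-box each. RAB27A is shown for contrast, since none of its windows held either motif. A match describes letters only and is not a measured binding site. The windows are CD63 at chr12:55729010-55729259 on the minus strand, GPNMB at chr7:23246525-23246774 on the plus strand, GPR143 at chrX:9765848-9766097 on the minus strand, RAB17 at chr2:237590735-237590984 on the minus strand, MLPH at chr2:237487001-237487250 on the plus strand, HPS3 at chr3:149129388-149129637 on the plus strand and RAB27A at chr15:55319124-55319373 on the minus strand.
CD63: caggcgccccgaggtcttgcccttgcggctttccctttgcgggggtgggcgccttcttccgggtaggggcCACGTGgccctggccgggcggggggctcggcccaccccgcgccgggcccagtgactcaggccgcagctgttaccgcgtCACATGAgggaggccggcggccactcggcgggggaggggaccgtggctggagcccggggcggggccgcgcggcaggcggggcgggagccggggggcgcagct
GPNMB: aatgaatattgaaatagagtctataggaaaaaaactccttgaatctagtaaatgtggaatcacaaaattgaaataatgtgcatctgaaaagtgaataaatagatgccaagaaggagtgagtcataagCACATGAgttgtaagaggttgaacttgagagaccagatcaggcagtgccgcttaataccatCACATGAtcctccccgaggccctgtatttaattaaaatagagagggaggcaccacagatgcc
GPR143: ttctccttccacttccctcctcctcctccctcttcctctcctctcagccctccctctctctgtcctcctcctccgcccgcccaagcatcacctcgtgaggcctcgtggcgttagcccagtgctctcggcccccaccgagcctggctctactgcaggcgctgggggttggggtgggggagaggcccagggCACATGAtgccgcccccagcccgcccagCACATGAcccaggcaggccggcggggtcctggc
RAB17: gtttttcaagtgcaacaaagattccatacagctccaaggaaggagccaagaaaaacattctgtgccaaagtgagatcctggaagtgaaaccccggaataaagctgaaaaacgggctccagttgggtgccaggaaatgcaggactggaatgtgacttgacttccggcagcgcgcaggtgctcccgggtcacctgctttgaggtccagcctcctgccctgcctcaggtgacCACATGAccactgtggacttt
MLPH: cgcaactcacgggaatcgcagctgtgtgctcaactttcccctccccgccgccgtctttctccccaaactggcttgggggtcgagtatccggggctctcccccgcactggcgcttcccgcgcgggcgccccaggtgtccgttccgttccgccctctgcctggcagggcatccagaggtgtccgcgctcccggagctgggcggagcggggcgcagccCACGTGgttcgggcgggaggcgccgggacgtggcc
HPS3: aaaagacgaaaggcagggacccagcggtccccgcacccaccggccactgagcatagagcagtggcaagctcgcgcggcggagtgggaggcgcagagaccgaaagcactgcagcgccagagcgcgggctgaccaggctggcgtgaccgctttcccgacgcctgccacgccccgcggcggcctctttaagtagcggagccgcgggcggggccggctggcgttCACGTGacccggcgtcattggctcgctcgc
RAB27A: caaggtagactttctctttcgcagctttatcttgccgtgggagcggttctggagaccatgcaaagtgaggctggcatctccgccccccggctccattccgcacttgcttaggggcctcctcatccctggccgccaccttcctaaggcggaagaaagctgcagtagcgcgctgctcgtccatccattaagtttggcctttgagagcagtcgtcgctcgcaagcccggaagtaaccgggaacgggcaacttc

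In control cells the most abundant of the 34 transcripts per length were CD63, GPNMB, GPR143, RAB38, RAB7A and RAB32 in both lines. CD63, a tetraspanin that sorts cargo inside the maturing organelle, had 591 CPM per kb of annotated exons with 501Mel shSCR1 and 1073 CPM per kb with Hermes 3A shSCR, the highest of the 34 in both. In 501Mel shSCR1 it was followed by the glycoprotein GPNMB (406 CPM per kb), RAB38 (277), RAB7A (263), the melanosomal G-protein-coupled receptor GPR143 (194) and RAB32 (165). In this order RAB38 and RAB7A overlapped between samples (259 to 288 and 257 to 269.8 CPM per kb), and the other neighbours named did not. In Hermes 3A shSCR RAB32 stood second with 684 CPM per kb, and GPNMB (394) and RAB38 (391) overlapped. The order depends on the length used: per kb of the longest transcript GPNMB (832) stood above RAB32 (684) in Hermes 3A shSCR, and RAB7A stood above RAB38 there (446 against 391) and in 501Mel shSCR1 (318 against 277). MYO7A, an unconventional myosin of the retina and inner ear, was lowest in both with 0.138 and 0.0608 CPM per kb. The libraries were treated with a nuclease that lowers the most abundant cDNAs, so that levels of CD63 and GPNMB may be understated relative to the rest.

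Levels differed between 501Mel shSCR1 and Hermes 3A shSCR for most of the 34 genes, as they did for most of all genes tested. At the study's thresholds 9 were lower and 2 higher in 501Mel shSCR1 than in Hermes 3A shSCR, where 18.2% and 23.1% of all 18731 genes tested were called lower and higher. The adjusted p alone gave 22 lower and 6 higher, against 40.2% and 41.4% of all genes. The largest difference was in HPS1, the BLOC-3 subunit, with 27.3, 30.2 and 30.3 CPM in 501Mel shSCR1 and 218, 223 and 212 CPM in Hermes 3A shSCR (log2 difference -2.90 ± 0.054, edgeR adjusted p = 3.6e-24). Its partner HPS4 went the other way, with 560.1, 612 and 604 CPM against 282, 284 and 285 CPM (1.06 ± 0.045). No sample of one line reached into the range of the other for either gene. MYO5A (-2.18 ± 0.053), RAB32 (-2.05 ± 0.051), BLOC1S2 (-1.75 ± 0.052), LYST (-1.74 ± 0.049), the melanoregulin gene MREG (-1.66 ± 0.053), RAB27A (-1.19 ± 0.048), ATP7A (-1.11 ± 0.054) and MLPH (-1.06 ± 0.044) were also lower in 501Mel, all on the log2 scale. The other higher gene was MYO7A (1.17 ± 0.24), which had 52 to 73 counts in 501Mel shSCR1 and 21 to 29 in Hermes 3A shSCR. These differences depend on the processing and on the scramble group taken for 501Mel. In their weakest alternative fit RAB27A (-0.93), ATP7A (-0.86) and MLPH (-0.8) went under the fold threshold. They stayed beyond it whichever sample was left out. With mean CPM of shSCR2 in place of shSCR1, described with no test, HPS1, LYST, MYO5A, MLPH, RAB32 and BLOC1S2 stayed beyond 1 on the log2 scale (-2.34 to -1.26). RAB27A (308 against 439 CPM, -0.51), ATP7A (63.7 against 94.7 CPM, -0.57), MREG (54.6 against 87.2 CPM, -0.68), HPS4 (462 against 284 CPM, 0.70) and MYO7A (0.71) did not.

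With shBRG1 in 501Mel, 15 of the 34 genes were down-regulated and 1 was up-regulated, where 17.4% and 21.7% of all 20514 genes tested were called down and up. The median log2 fold change of the 34 was -0.75, against 0.05 over all genes tested. At the adjusted p alone 24 fell and 4 rose, against 39.1% and 41.2% of all genes. RAB27A (-2.47), GPNMB (-2.39), GPR143 (-2.28), CD63 (-2.26) and MLPH (-2.13) fell furthest on the log2 scale.

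RAB27A, the GTPase that recruits the actin motor, had 181, 196 and 201 CPM with shSCR1 and 34.5, 34.7 and 40 CPM with shBRG1. All shBRG1 samples lay far below all shSCR1 samples, a fall of 2.47 ± 0.06 on the log2 scale (edgeR adjusted p = 9.6e-21). MLPH, its linker to the motor, had 198, 209 and 202 CPM against 45.2, 50.6 and 50.2 CPM (-2.13 ± 0.052). MYO5A, the motor, had 218, 241 and 257 CPM against 101, 89.9 and 109 CPM (-1.32 ± 0.066). Neither gene overlapped between the groups. All 3 parts of the tripartite complex were down-regulated, though MYO5A went under the fold threshold in its weakest alternative fit (-0.97). SYTL2, another effector that binds RAB27A at the membrane, fell from between 238 and 243 CPM to between 88.5 and 94.7 CPM (-1.45 ± 0.046). The remaining motors and linkers did not pass the test: MREG changed by -0.01 ± 0.059, the kinesin KIF13A by -0.05 ± 0.05 and MYO7A by -0.33 ± 0.18.

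Among the RAB GTPases, 4 of 6 were down-regulated. RAB32, which directs pigment enzymes to the melanosome, had 184, 215 and 203 CPM with shSCR1 and 52.3, 56.4 and 55.6 CPM with shBRG1 (-1.94 ± 0.056). RAB38, its close relative, fell less, from between 379 and 423 CPM to between 223 and 239 CPM (-0.87 ± 0.051). RAB17, a regulator of melanosome release and filopodia in melanocytes, had 105, 94 and 94.4 CPM against 32.7, 35.6 and 33.9 CPM (-1.59 ± 0.054). RAB7A, of late endosomes, fell by 1.24 ± 0.046 on the log2 scale, and RAB11A, of recycling endosomes, rose by 0.39 ± 0.046. The groups did not overlap for any of these 5 genes. How many of all genes had groups apart in this comparison was not counted. Of all genes tested 17.4% were down-regulated, and at the adjusted p alone 39.1% and 41.2% fell and rose.

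All 4 membrane proteins fell. GPNMB had 2419, 2481 and 2452 CPM with shSCR1 and 513, 463 and 494 CPM with shBRG1 (-2.39 ± 0.052, edgeR adjusted p = 1.7e-21). GPR143, mutated in ocular albinism, had 459, 499 and 485 CPM against 104 CPM in each shBRG1 sample (-2.28 ± 0.049). CD63 had 1489, 1598 and 1584 CPM against 344, 352 and 326 CPM (-2.26 ± 0.052). In each of these 3 the knockdown samples were at less than the lowest scramble sample by a wide gap, whereas the copper transporter ATP7A, which supplies tyrosinase with copper, fell by only 0.30 ± 0.055 on the log2 scale. LYST had 169, 165 and 174 CPM against 64.5, 58.4 and 66.9 CPM (-1.49 ± 0.052).

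The complexes that sort cargo changed unevenly. In BLOC-1, BLOC1S4 (cappuccino) was down-regulated, with 24.3, 25.7 and 24.7 CPM against 8.08, 8.11 and 7.03 CPM (-1.75 ± 0.07), whereas DTNBP1 (-0.65 ± 0.061), BLOC1S2 (-0.46 ± 0.056), BLOC1S3 (-0.37 ± 0.067) and BLOC1S6 (-0.24 ± 0.049) fell less. BLOC1S1 and BLOC1S5 did not pass the test, and 29.8% and 14.3% of their exon bases are shared with other annotated genes, read-through genes among them. All 3 BLOC-2 subunits fell, HPS3 by 1.30 ± 0.059, HPS6 by 1.20 ± 0.059 and HPS5 by 0.62 ± 0.045 on the log2 scale. Of the HPS3 exon bases 22.7% are shared with another gene. In BLOC-3, the exchange factor for RAB32 and RAB38, the subunits moved in opposite directions. HPS1 had 27.3, 30.2 and 30.3 CPM with shSCR1 and 72.7, 73.4 and 70.5 CPM with shBRG1, a rise of 1.24 ± 0.053 on the log2 scale (edgeR adjusted p = 4.6e-16). HPS4 had 560.1, 612 and 604 CPM against 337, 335 and 349 CPM (-0.86 ± 0.048). The groups did not overlap for either subunit, and HPS1 was the only up-regulated gene of the 34. Among the adaptor subunits, AP3D1 was down-regulated, with 369.7, 411 and 390.2 CPM against 192, 199.7 and 191 CPM (-1.07 ± 0.049). AP3M1 (0.38 ± 0.048) and AP3S1 (0.42 ± 0.047) rose, AP1S1 fell by 0.26 ± 0.046 on the log2 scale and AP3B1 changed by -0.06 ± 0.051. Of the exon bases of AP3M1 and AP3S1 18.8% and 11.8% are shared with a gene on the other strand, and whether the counting used strand is not given in the sources used here. The small changes depend on the scaling: with library sizes in place of TMM factors the median over all genes tested was 0.40 in place of 0.05, 10 of the 34 genes rose in place of 4, and the signs of BLOC1S6, AP3B1, AP1S1, MREG, KIF13A and ATP7A turned. With shSCR1 and shSCR2 pooled 1 gene rose. Some larger changes depended on the processing too. AP3D1 (-0.72), HPS6 (-0.85), RAB7A (-0.89), HPS3 (-0.95) and MYO5A (-0.97) went under the fold threshold in their weakest alternative fit. They stayed beyond it whichever sample was left out.

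**Figure D1:**
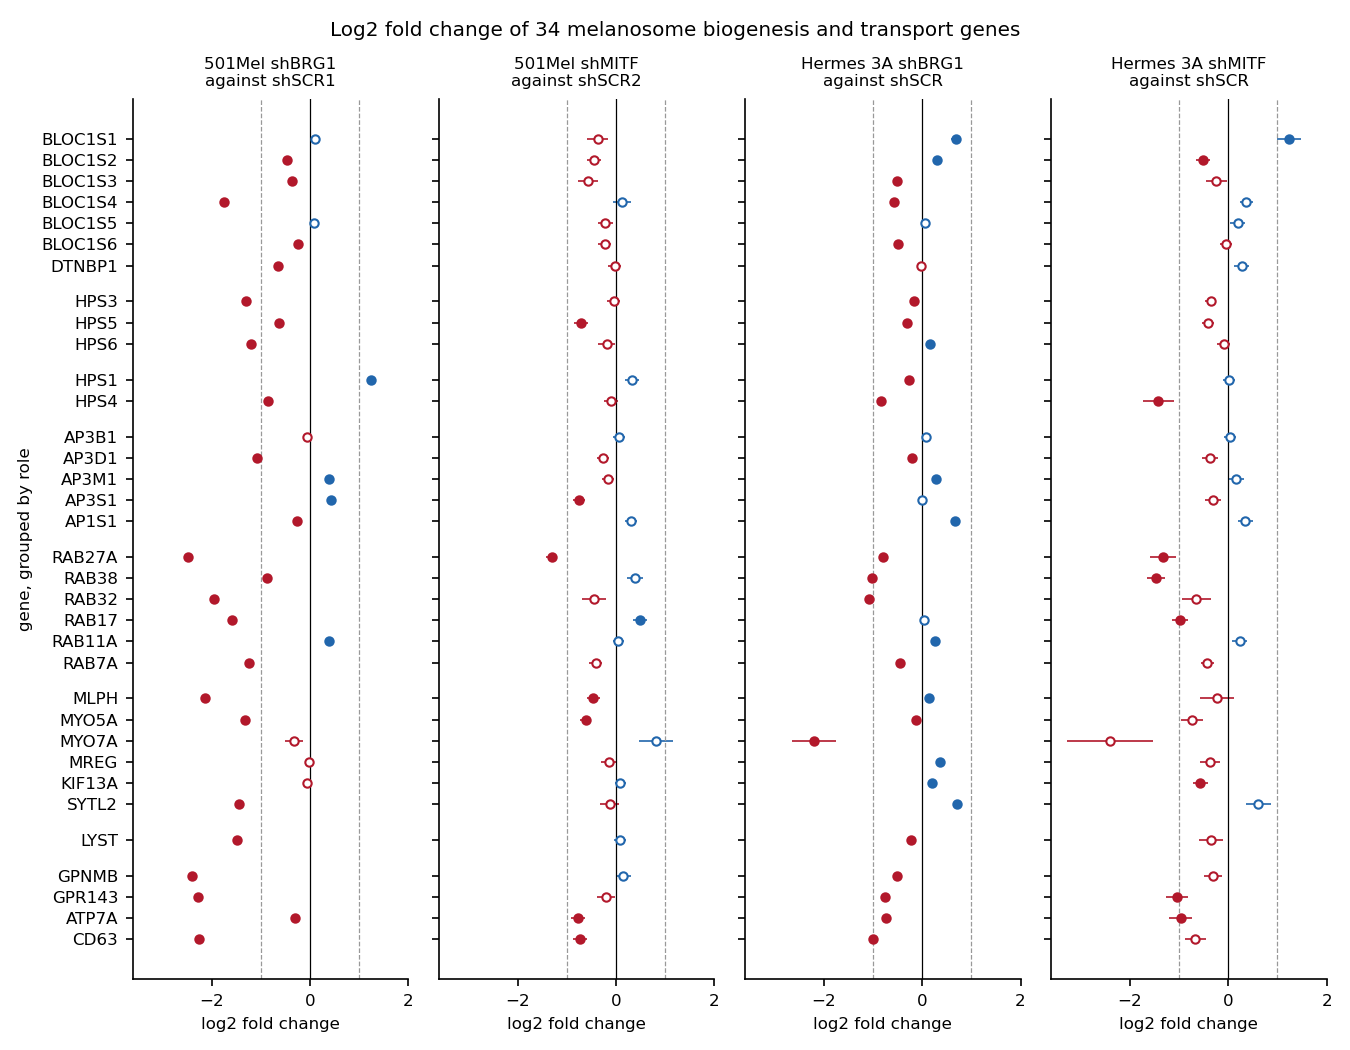
Log2 fold changes (x axes, bars are SE) of the 34 genes (rows, grouped by role) in the 4 knockdown comparisons, filled where the adjusted p is under 0.05, red below 0 and blue above 0, with dashed lines at -1 and 1. With shBRG1 in 501Mel 15 filled points lie left of -1 and HPS1 alone lies right of 1.

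With shBRG1 in Hermes 3A, 3 of the 34 genes were down-regulated and none was up-regulated, where 3.47% and 5.78% of all 17222 genes tested were called. At the adjusted p alone 19 fell and 10 rose, against 28.6% and 28.2% of all genes. The median of the 34 was -0.19, against 0.01 over all genes tested. RAB32 had 838, 828 and 833 CPM with shSCR and 397, 398 and 381 CPM with shBRG1 (-1.08 ± 0.04, edgeR adjusted p = 4.8e-19). RAB38 had 565, 568 and 584 CPM against 278, 289 and 270.2 CPM (-1.02 ± 0.04). Every shBRG1 sample lay far below every scramble sample for both GTPases. The third, MYO7A, rested on few reads, with 25, 21 and 29 counts against 6, 4 and 9 (-2.20 ± 0.44). With library sizes in place of TMM factors RAB32 (-0.97) and RAB38 (-0.92) went under the fold threshold, which left MYO7A (-2.10) alone.

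CD63 had 2769, 2897 and 2810.3 CPM with shSCR and 1456, 1441 and 1319 CPM with shBRG1, a change with a 95% interval from -1.08 to -0.91 on the log2 scale whose estimate fell just short of the fold-change threshold. Its groups lay far apart, as did those of HPS4 (282, 284 and 285 CPM against 158, 161 and 158 CPM, -0.83 ± 0.038) and RAB27A (437, 419.6 and 459.9 CPM against 253, 252 and 250.1 CPM, -0.79 ± 0.04). GPR143 (-0.75 ± 0.04), ATP7A (-0.73 ± 0.047) and GPNMB (-0.51 ± 0.041) fell too, so that all 4 membrane proteins fell in this line. The other 2 proteins of the RAB27A complex moved little: MYO5A fell by 0.12 ± 0.041 on the log2 scale and MLPH rose by 0.13 ± 0.039. SYTL2 rose from between 131 and 146 CPM to between 219 and 231 CPM (0.70 ± 0.042). BLOC1S1 (0.68 ± 0.092) and AP1S1 (0.67 ± 0.041) also rose, as did MREG (0.37 ± 0.041), BLOC1S2 (0.30 ± 0.04), AP3M1 (0.28 ± 0.045), RAB11A (0.26 ± 0.043), KIF13A (0.21 ± 0.044) and HPS6 (0.15 ± 0.057). The rise of HPS6 passed the test in 1 of the 6 fits that leave out a sample (without replicate 2 of shSCR, 0.20, edgeR adjusted p = 0.0027), and not with all groups of the line in 1 fit (edgeR adjusted p = 0.344). The fall of MYO5A was lost in 1 of the 6. HPS1, which had risen in 501Mel, fell by 0.27 ± 0.04 on the log2 scale.

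The shBRG1 effect differed between the lines for many of the 34 genes. The difference of effects, 501Mel minus Hermes 3A, was tested as a contrast in 1 fit, and 12 genes had a more negative effect in 501Mel and 2 a more positive one at the study's thresholds, where 14.9% and 12% of all 21697 genes tested were called. Without the fold threshold the numbers were 23 and 5, against 33.1% and 24.8% of all genes. The median difference was -0.72, against -0.03 over all genes tested. MLPH differed most, by -2.29 ± 0.063 (edgeR adjusted p = 1.3e-27), followed by SYTL2 (-2.18 ± 0.064), GPNMB (-1.91 ± 0.069), RAB27A (-1.71 ± 0.073), RAB17 (-1.66 ± 0.078) and GPR143 (-1.56 ± 0.061). SYTL2 and MLPH fell in one line and rose in the other. HPS1 differed in the other direction, by 1.48 ± 0.065. RAB38 fell in both lines by amounts that were not told apart, with a difference of 0.13 and a 95% interval from 0.00 to 0.25 (edgeR adjusted p = 0.089), and so did HPS4, with a difference of -0.07 and a 95% interval from -0.19 to 0.05 (edgeR adjusted p = 0.35). In all, 17 of the 34 genes fell with shBRG1 in both lines at the adjusted p, where 21.7% of the 16213 genes tested in both did so. Another 6 moved in opposite directions, against 13.4%, and 1 of these is HPS6, whose call in Hermes 3A was lost in 5 of the 6 fits that leave out a sample. SOX10, a regulator of the lineage, fell by 2.44 ± 0.05 in 501Mel and by 0.40 ± 0.045 in Hermes 3A, and its part in the difference was not tested.

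**Figure D2:**
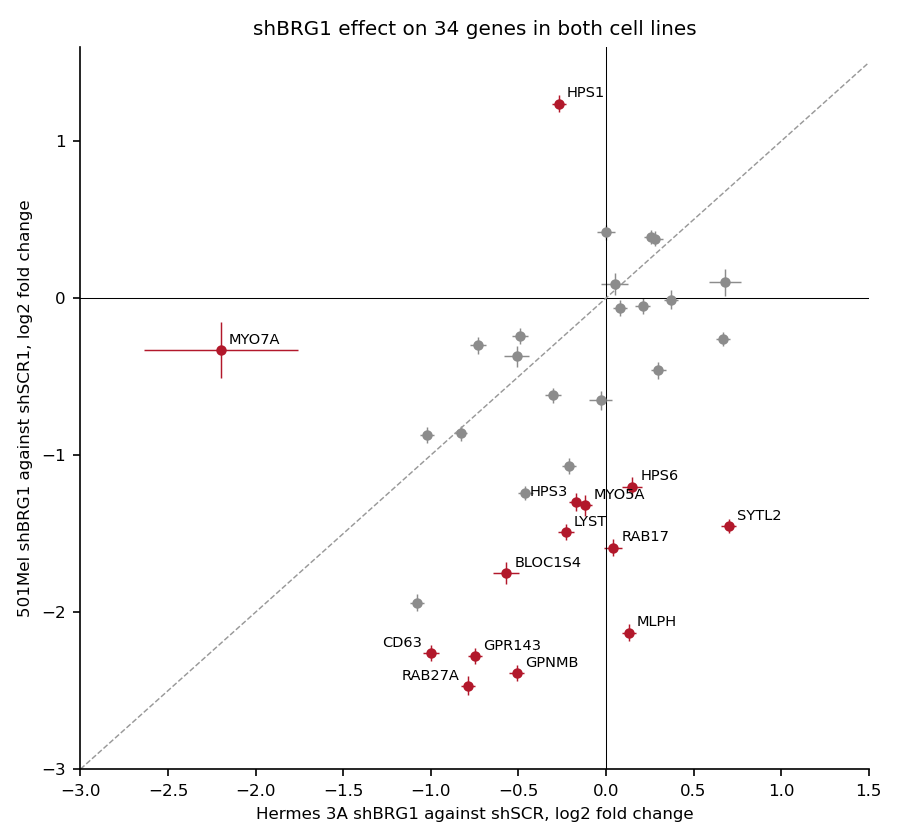
Effect of shBRG1 (log2 fold change) in Hermes 3A on the x axis and in 501Mel on the y axis for the 34 genes, with SE bars and the line of equal effect dashed. The 14 genes in red differ between the lines at an adjusted p under 0.05 and a difference beyond 1, and 12 of them lie below the dashed line.

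With shMITF in 501Mel, 1 of the 34 genes was down-regulated and none up-regulated, where 3.4% and 5.59% of all 17701 genes tested were called. At the adjusted p alone 7 fell and 1 rose, against 10.5% and 10% of all genes, and the median was -0.18, against 0.01 over all genes tested. The down-regulated gene was RAB27A, with 295 and 322 CPM with shSCR2 and 128 and 114 CPM with shMITF (-1.31 ± 0.12, edgeR adjusted p = 3.7e-04). ATP7A (-0.77 ± 0.14), AP3S1 (-0.75 ± 0.12), CD63 (-0.73 ± 0.14), HPS5 (-0.71 ± 0.14), MYO5A (-0.62 ± 0.12) and MLPH (-0.46 ± 0.14) fell and RAB17 rose (0.48 ± 0.14). Without replicate 1 of shSCR2 11 genes fell. RAB17 kept its call only without replicate 1 of shSCR2 and lost it in the other 3 fits (0.32 without replicate 2 of shSCR2, edgeR adjusted p = 0.243, and 0.44 and 0.49 without replicate 1 or 2 of shMITF, both at 0.108). MLPH lost its call without replicate 2 of shSCR2 (-0.34, edgeR adjusted p = 0.198) or replicate 1 of shMITF (-0.36, edgeR adjusted p = 0.135). CD63 had 1006 and 1015 CPM against 537 and 646 CPM. No member of BLOC-1 or BLOC-3 passed the test.

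These calls depended on the scramble group. The 2 scramble groups of 501Mel differed from each other at the adjusted p for 29 of the 34 genes (10 lower and 19 higher with shSCR2), where 34.5% and 35.3% of all 19056 genes tested were lower and higher. At the study's thresholds GPNMB (-1.07 ± 0.072) and RAB17 (-1.02 ± 0.1) were lower and none was higher, against 20.7% and 12.3% of all genes. With both scramble groups pooled, none of the 34 genes fell or rose with shMITF at the adjusted p, and RAB17 turned to -0.24. In that fit CD63 changed by -1.15 (edgeR adjusted p = 0.059), RAB27A by -0.96 (0.105) and MLPH by -0.70 (0.087). In the levels by sample, the shMITF samples lay below every scramble sample of both groups for 9 genes (RAB27A, CD63, ATP7A, HPS5, MLPH, BLOC1S3, HPS4, AP3D1 and RAB7A) and above all of them for HPS1, RAB38 and MYO7A, where 15.1% and 15.3% of 17531 genes did so. RAB27A had 181, 196 and 201 CPM with shSCR1, still above the 128 and 114 CPM with shMITF. AP3S1 (51.4 to 53.9 CPM with shSCR1 against 53.3 and 51.8 CPM with shMITF) and MYO5A (218 to 257 CPM against 236 and 227 CPM) were at the level of shSCR1. MITF itself had 513 to 609 CPM with shSCR1, 1048 and 1186 CPM with shSCR2 and 494 and 546 CPM with shMITF. Vector, time and handling cannot be told apart between the scramble groups.

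**Figure D3:**
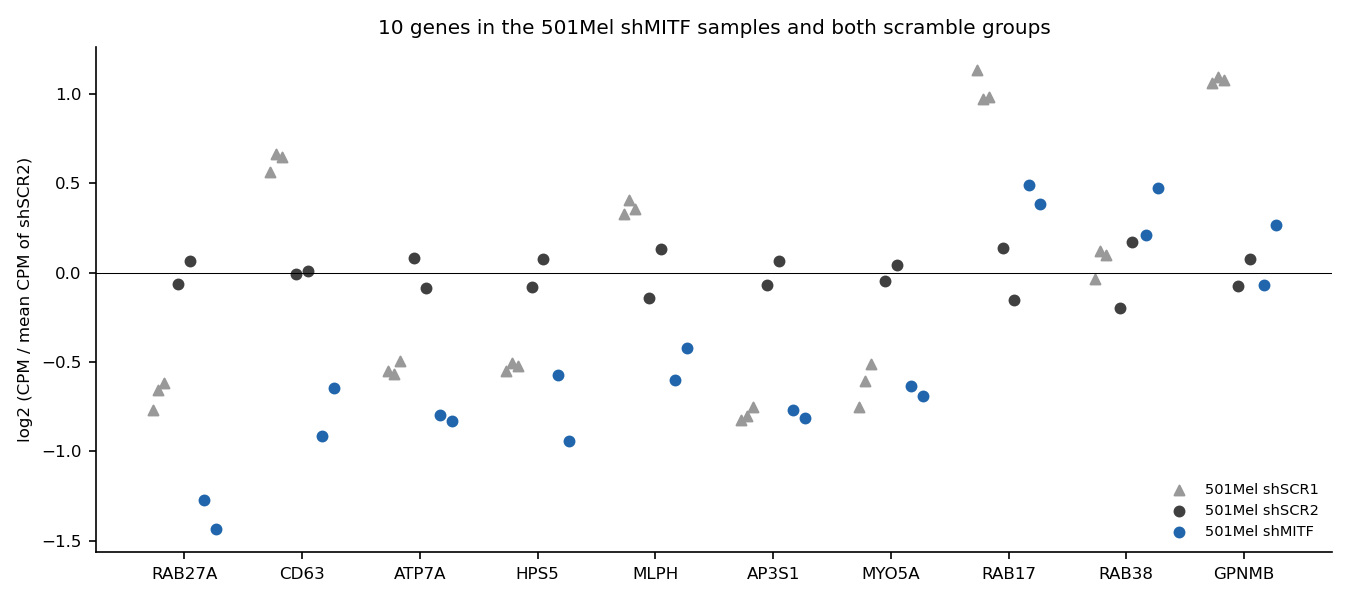
Log2 of CPM relative to the mean of shSCR2 (y axis) for 10 genes in each 501Mel sample with shSCR1 (triangles), shSCR2 (dark circles) and shMITF (blue circles). For RAB27A, CD63, ATP7A, HPS5 and MLPH both blue circles lie below all scramble samples, whereas AP3S1 and MYO5A with shMITF lie at the level of shSCR1.

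With shMITF in Hermes 3A, 4 of the 34 genes were down-regulated and 1 was up-regulated, where 4.04% and 3.35% of all 16508 genes tested were called. At the adjusted p alone 8 fell and 1 rose, against 9.15% and 7.85% of all genes, and the median was -0.35, against 0.05 over all genes tested. RAB38 had 565, 568 and 584 CPM with shSCR and 189.5, 258 and 162 CPM with shMITF (-1.47 ± 0.19, edgeR adjusted p = 0.0024). HPS4 had 282, 284 and 285 CPM against 72.8, 165 and 73.6 CPM (-1.42 ± 0.31). RAB27A had 437, 419.6 and 459.9 CPM against 106, 246 and 163 CPM (-1.33 ± 0.27). GPR143 had 458, 455 and 438 CPM against 217, 277 and 149 CPM (-1.04 ± 0.22). Every shMITF sample lay below every scramble sample for these 4 genes, and replicate 2 was the highest of the shMITF samples in each. The share of all genes with groups apart in this comparison was not counted. BLOC1S1 rose, from 6.25, 7.05 and 6.85 CPM to 18.6, 10.1 and 18.2 CPM (1.24 ± 0.24).

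RAB17 (-0.98 ± 0.17), ATP7A (-0.97 ± 0.23), KIF13A (-0.57 ± 0.15) and BLOC1S2 (-0.51 ± 0.14) fell by less. Replicate 2 stood apart from the other shMITF samples for several members that did not pass the test. MLPH had 197, 577 and 285 CPM with shMITF against 419 to 428 CPM with shSCR (-0.23 ± 0.34), and RAB32 had 465, 779.9 and 312 CPM against 828 to 838 CPM (-0.65 ± 0.29). Without replicate 2, 6 genes were down-regulated, 14 fell and 5 rose, and MLPH fell by 0.79 ± 0.17 on the log2 scale (edgeR adjusted p = 0.019). The common biological coefficient of variation was 21.6% here and 5.75% for shBRG1 in the same line. Without scramble replicate 1, 2 or 3 the number that fell was 4, 2 and 2 and none rose, and 3, 1 and 2 were down-regulated. Without replicate 1 of shMITF 14 genes fell. Without replicate 3 of shMITF 5 genes fell, and RAB27A and HPS4 both missed the threshold at an edgeR adjusted p of 0.054. The 6 fits that leave out a sample are counted here by the adjusted p alone. RAB38 and RAB17 passed it in all, RAB27A, HPS4, GPR143 and BLOC1S1 missed it in 3, ATP7A and KIF13A in 4 and BLOC1S2 in 5. GPR143 passed it without replicate 3 of shMITF, but its fold went under the threshold there (-0.84).

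The shMITF effect differed between the lines at the study's thresholds for 3 of the 34 genes, where 0.643% and 2% of all 19284 genes tested were called more negative and more positive in 501Mel. Without the fold threshold it was the same 1 and 2 genes, against 0.83% and 2.16% of all genes. RAB38 had 339 and 438 CPM with 501Mel shSCR2 and 449.9 and 539 CPM with shMITF (0.39 ± 0.16), against its fall in Hermes 3A, a difference of 1.85 ± 0.28 (edgeR adjusted p = 0.0048). RAB17 rose in 501Mel and fell in Hermes 3A (difference 1.45 ± 0.25). RAB38 kept this call whichever of the 10 samples was left out, and RAB17 lost it without replicate 2 of shSCR2 (1.31, edgeR adjusted p = 0.058). BLOC1S1 differed by -1.61 ± 0.36 (edgeR adjusted p = 0.035) and lost the call in 8 of the 10 fits, holding without replicate 1 or 2 of Hermes 3A shMITF. For RAB27A the difference was 0.00, with a 95% interval from -0.70 to 0.71.

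The effects of the knockdowns were also compared within each line. In 501Mel the shBRG1 effect minus the shMITF effect, each against its own scramble group, passed the study's thresholds as more negative for 13 genes and as more positive for AP3S1 (1.20 ± 0.098), where 15.5% and 11.8% of all 22255 genes tested were called. Without the fold threshold they were 20 and 6, against 26.8% and 21.2% of all genes. GPNMB differed most (-2.51 ± 0.14), followed by RAB17 (-2.04 ± 0.13) and GPR143 (-2.04 ± 0.17). RAB27A differed by -1.13 ± 0.12, and in its weakest alternative fit by -0.9, under the fold threshold. In Hermes 3A, where shBRG1 and shMITF samples were compared directly, 1 gene of the 33 tested was higher with shBRG1 and none lower, where 3.73% and 2.08% of all 16927 genes tested were called. The adjusted p alone gave 4 higher and 2 lower, against 7.36% and 6.9% of all genes. That gene was RAB17, with 59.2, 67.4 and 65.1 CPM with shBRG1 and 27.9, 26.6 and 39.3 CPM with shMITF (1.02 ± 0.17). It missed the threshold without replicate 2 (0.98, edgeR adjusted p = 0.055) or replicate 3 (1.01, adjusted p = 0.051) of shBRG1, and its fold fell under the threshold without replicate 1 (0.94) or replicate 2 (0.93) of shMITF. MYO7A did not pass the filter on low counts there.

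Across the 4 knockdown comparisons, RAB27A and ATP7A fell in every one at the adjusted p, a pattern shown by 2.65% of the 14925 genes tested in all 4. RAB27A changed by -2.47, -1.31, -0.79 and -1.33 on the log2 scale and ATP7A by -0.30, -0.77, -0.73 and -0.97, where values follow 501Mel with shBRG1 and then shMITF, and Hermes 3A likewise, whose knockdowns share their scramble samples. With library sizes in place of TMM factors ATP7A changed by 0.05 with shBRG1 in 501Mel, so that its fall there rests on the scaling. With the scramble groups of 501Mel pooled neither gene passed the test with shMITF (edgeR adjusted p = 0.105 for RAB27A and 0.269 for ATP7A), and with shMITF in Hermes 3A their calls were lost in 3 and 4 of the 6 fits that leave out a sample. A further 6 genes, against 7.21% of all, fell in 3 comparisons (HPS5, HPS4, RAB38, MYO5A, GPR143 and CD63), and 6, against 41.3%, fell in none (BLOC1S1, BLOC1S5, AP3B1, AP3M1, RAB11A and MREG). Levels of 8 genes in each sample show the groups side by side.

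**Figure D4:**
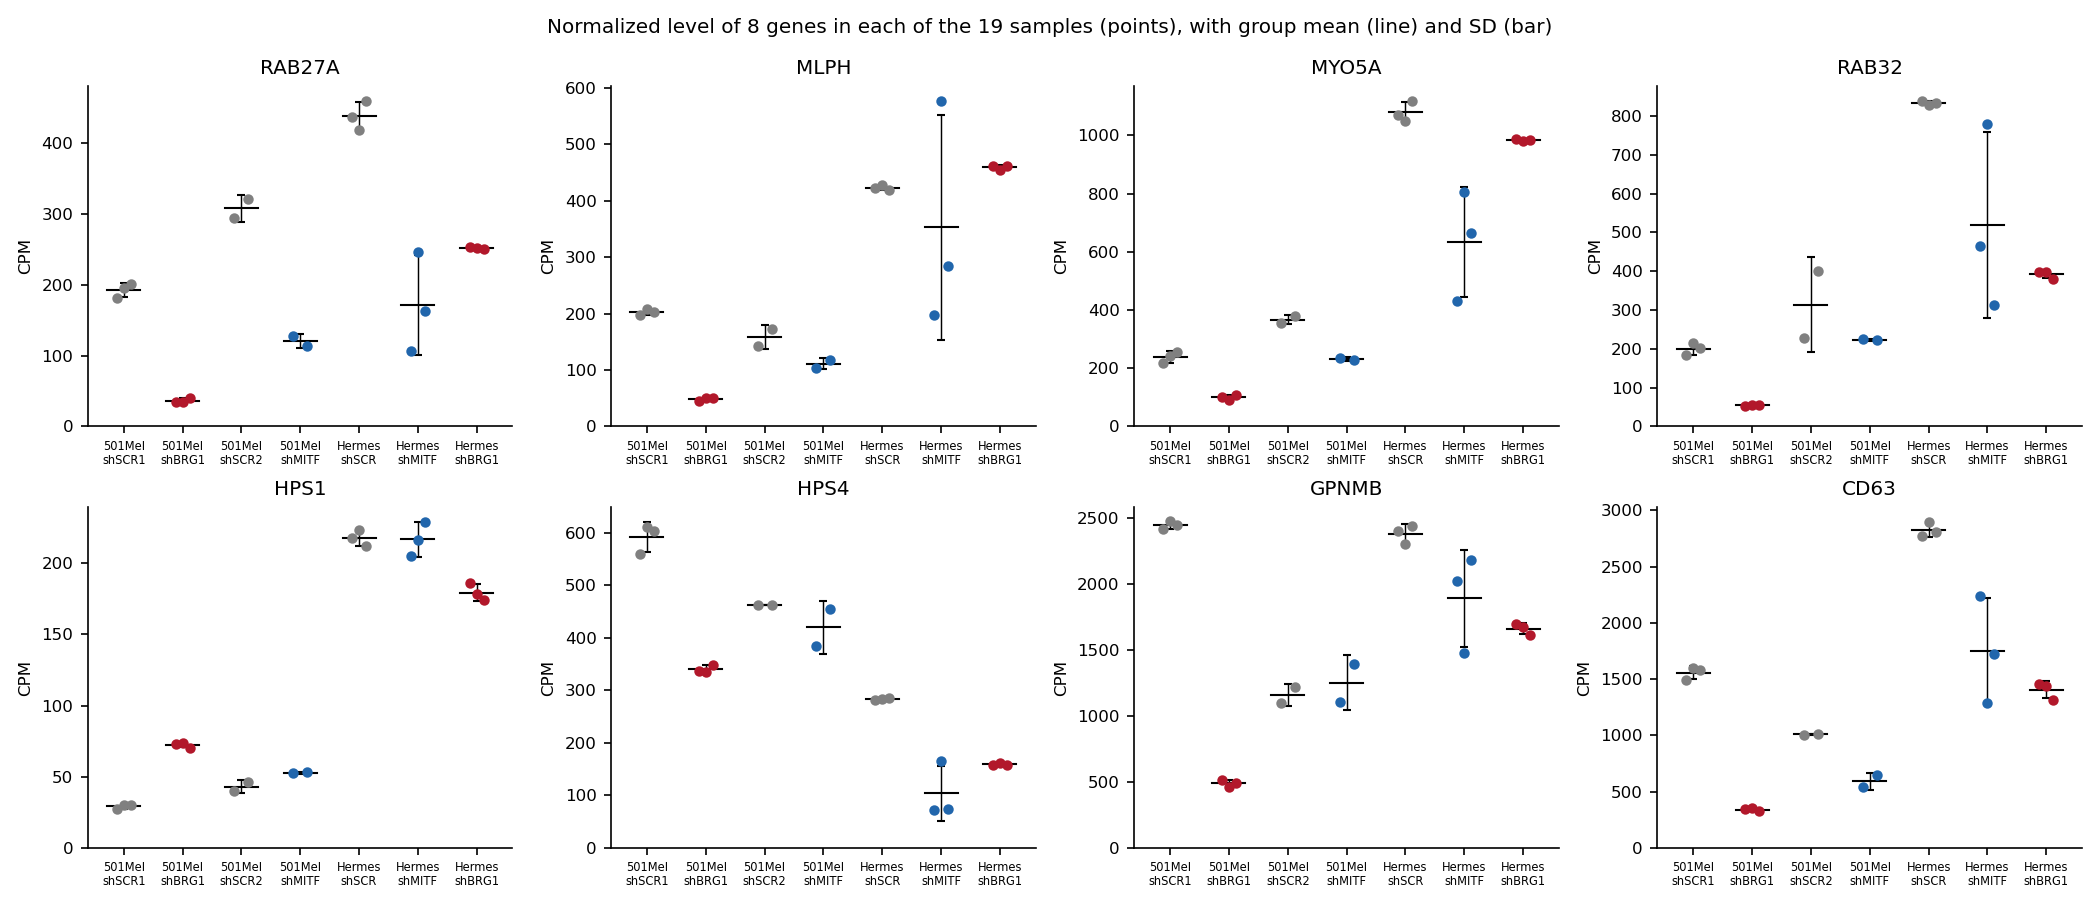
CPM (y axes, from 0) of RAB27A, MLPH, MYO5A, RAB32, HPS1, HPS4, GPNMB and CD63 in each sample of the 7 groups, with points for samples, lines for group means and bars for SD. RAB27A is lowest in 501Mel shBRG1 (34.5 to 40 CPM), HPS1 rises there to between 70.5 and 73.4 CPM, and Hermes 3A shMITF has the widest spread for MLPH (197 to 577 CPM).

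Other genes of the same trafficking routes were taken as a list of 46, and 8 genes for melanosome cargo (TYR, TYRP1, DCT, PMEL, MLANA, SLC45A2, OCA2 and SLC24A5) as another. Of the 44 other trafficking genes tested with shBRG1 in 501Mel, 7 were down-regulated and 2 up-regulated, with a median of -0.33, beside 17.4% and 21.7% of all genes tested, so that the share down-regulated was near that of all genes. They included the HOPS subunits VPS41 (-1.17 ± 0.046) and VPS11 (-1.13 ± 0.048), SGSM2, which activates hydrolysis by RAB32 and RAB38 (-1.74 ± 0.05), and PI4K2A, a lipid kinase that acts with AP-3 (-1.25 ± 0.045). With shMITF in 501Mel 1 of 43 was down- and 2 were up-regulated, with shBRG1 in Hermes 3A 2 of 45 and 2, and with shMITF in Hermes 3A 2 of 45 and 1. Of all genes tested 3.4% and 5.59%, 3.47% and 5.78%, and 4.04% and 3.35% were called down and up in these comparisons in the same order. All 8 cargo genes were down-regulated with shBRG1 in 501Mel (median -3.57), and 1, 3 and 5 of them in the other comparisons in the same order (medians -0.67, -0.93 and -1.17).

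RAB27B, the close paralog of RAB27A, was picked from that list after its values were seen. It had 31, 25 and 45 counts with Hermes 3A shSCR, 195, 270 and 232 counts with shBRG1 (2.53 ± 0.18 on the log2 scale) and 196, 127 and 157 counts with shMITF (2.65 ± 0.28), so that it was up-regulated where RAB27A fell. In 501Mel it had 0, 1 and 0 counts with shSCR1 and 52, 35 and 35 counts with shBRG1, too few at the start for a fold change to be given. Its level stayed low, with means of at most 0.689 CPM per kb of exons (Hermes 3A shMITF), where RAB27A had 30.6 CPM per kb in the same group.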

How the data were processed

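RNA-seq of 19 samples in 7 groups was used, grouped by their labels. Total RNA was depleted of ribosomal RNA, and libraries were treated with a duplex-specific nuclease that lowers abundant cDNAs. The files deposited by the authors hold unnormalised read counts for Ensembl genes. The submitters' processing notes name CASAVA 1.8, TopHat 1.4.1, Bowtie 0.12.7 and hg19. The counting program, annotation and strand setting are not given in the sources used here.

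Counts were fitted in edgeR 4.0.16 (R 4.3.3) for the groups of each comparison: TMM, filterByExpr, a robust quasi-likelihood fit and Benjamini-Hochberg adjustment over all genes tested. The study's thresholds were used (adjusted p below 0.05, log2 fold change beyond 1 in size). The SE is the absolute log2 fold change over the root of F, and 95% intervals use a normal approximation from it. The code was tested on simulated data for the 4 knockdown comparisons and the differences of effects between the lines, with the same spread in each. The other comparisons were not simulated. The simulated spread was smaller than the common biological coefficient of variation of every comparison except shBRG1 in 501Mel (4.74%). In the shMITF comparisons this coefficient was 17.4% in 501Mel and 21.6% in Hermes 3A. The fit was therefore not tested at the spread of those comparisons. Alternatives were library sizes, DESeq2 1.42.0, other filters, a replicate block, other sample sets and each replicate left out. Exon lengths came from GENCODE 29 (GRCh38) by Ensembl identifier and promoter windows from RefSeq. Samples held 29158502 to 78857900 counts, so that counting error is small except for genes of few reads such as MYO7A and RAB27B. All 34 genes are named by role, and SMARCA4, MITF and SOX10 as a check. The genes and lists were chosen with earlier results of these data known.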

Additional observations from a re-analysis of the deposited data

Results flagged for a closer look

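The effect of a knockdown differed between 501Mel and Hermes 3A for 17 results, by the test of the difference itself in edgeR (501Mel minus Hermes 3A, log2 scale, adjusted p under 0.05 and a difference beyond 1). For shBRG1, MLPH differed by -2.29 ± 0.063, SYTL2 by -2.18 ± 0.064, GPNMB by -1.91 ± 0.069, RAB27A by -1.71 ± 0.073, RAB17 by -1.66 ± 0.078 and GPR143 by -1.56 ± 0.061. HPS6 differed by -1.38 ± 0.081, CD63 by -1.29 ± 0.069, LYST by -1.29 ± 0.073, MYO5A by -1.23 ± 0.08, BLOC1S4 by -1.21 ± 0.11 and HPS3 by -1.16 ± 0.075. In their weakest alternative fit MYO5A (-0.96), BLOC1S4 (-0.94) and HPS3 (-0.88) went under the fold threshold. HPS1 (1.48 ± 0.065) and MYO7A (1.85 ± 0.44) differed in the other direction, and MYO7A had fewer than 100 counts in every sample.

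For shMITF, RAB38 differed by 1.85 ± 0.28 (adjusted p = 0.0048), RAB17 by 1.45 ± 0.25 (adjusted p = 0.0087) and BLOC1S1 by -1.61 ± 0.36 (adjusted p = 0.035). The cell line, its medium and, in 501Mel, the choice of scramble group cannot be told apart in these differences.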

How the results depend on the processing

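Of 2174 values of single genes under an alternative, 2011 kept their side of the adjusted p threshold of 0.05, whatever their fold. Of these 1963 kept their direction and 48 changed sign without passing in either fit. Another 83 no longer passed, 72 newly passed and 8 reversed. Values that went under the fold threshold alone are not among the 83, such as RAB32 (-0.97) and RAB38 (-0.92) with shBRG1 in Hermes 3A under library sizes. Except where a value below shows it, the cause was not tested.

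With library sizes in place of TMM factors, the number of the 34 genes that rose with shBRG1 in 501Mel went from 4 to 10, and BLOC1S6 (0.11), AP3B1 (0.28), AP1S1 (0.08), MREG (0.34), KIF13A (0.30) and ATP7A (0.05) reversed, while the median of all genes tested moved to 0.40. The same scaling gave 1 down-regulated gene with shBRG1 in Hermes 3A, 2 that rose with shMITF in Hermes 3A, 11 with a higher shBRG1 effect in 501Mel at the adjusted p, 2 up-regulated in the shBRG1 minus shMITF contrast of 501Mel and 12 higher in 501Mel shSCR1 than in Hermes 3A shSCR. With the scramble groups of 501Mel pooled, 1 gene rose with shBRG1, AP1S1 reversed (0.02), RAB17 reversed with shMITF (-0.24), and the numbers down-regulated, lower and higher with shMITF were 0, 0 and 0.

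With no threshold on the fold change, shBRG1 in 501Mel gave 24 down and 4 up, shMITF in 501Mel 7 and 1, shBRG1 in Hermes 3A 19 and 10, and shMITF in Hermes 3A 8 down. With all groups of a line in one fit, 12 genes fell and 5 rose with shMITF in 501Mel, 11 fell and 3 rose with shBRG1 in Hermes 3A, and 14 fell and 2 rose with shMITF in Hermes 3A. DESeq2 gave 13 that fell with shMITF in Hermes 3A, 4 up-regulated and 4 higher for the shMITF difference between lines, and 1 up-regulated for shSCR2 against shSCR1. Without a filter on low counts 2 genes rose with shMITF in 501Mel.

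Same-numbered replicates were not paired by the labels, and the correlation of their deviations ranged from -0.14 to 0.31, over 0.1 in 2 of 11 pairs. With a replicate block 2 genes rose with shMITF in 501Mel, 7 were down-regulated with shMITF in Hermes 3A and 1 was lower with shBRG1 than with shMITF in Hermes 3A, and no other count moved by over 1.5 times. The block could not be fitted for 501Mel shSCR1 against Hermes 3A shSCR.

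Leaving out each replicate in turn, where a lone sample is assumed to vary like the other group, gave 6 to 11 genes that fell and 0 to 1 that rose with shMITF in 501Mel. With shMITF in Hermes 3A it gave 1 to 6 down-regulated, 0 to 1 up-regulated, 2 to 14 that fell and 0 to 5 that rose. For the shMITF difference between lines it gave 0 to 1 down-regulated, 0 to 1 lower, 1 to 3 up-regulated and 1 to 4 higher, and 1 to 2 were up-regulated in the shBRG1 minus shMITF contrast of 501Mel. With shBRG1 against shMITF in Hermes 3A it gave 0 to 1 up-regulated, 0 to 9 higher and 1 to 3 lower, and for shSCR2 against shSCR1 it gave 1 to 2 down-regulated and 0 to 1 up-regulated.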
